A study of Mus musculus with 12 samples.

Results

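The genes described here are 41 type I interferon-stimulated genes of the mouse, among them Isg15, the oligoadenylate synthetase, Ifit, Parp and Mx families, the RNA sensors Ifih1, Ddx58 and Dhx58 and the transcription factors Stat2, Irf7 and Irf9. They were picked by gene symbol with earlier results of these data known. Each was read from its probe set with the highest mean signal. Of the 41 genes 39 had a named probe set, out of 19494 genes with one on the array, and 38 passed the filter on weak signals and were tested. Ifi44 and Rnf213 had no named probe set and were not analysed here. Oasl1 was below the filter, at group means of 4.73 to 5.09 on the log2 scale. The RNA came from blood-forming cells of the bone marrow of untreated mice. Haematopoietic stem cells (HSC) were sorted as CD150-positive, CD48-negative cells and multipotent progenitors (MPP) as CD48-positive, CD150-negative cells, both within the lineage-negative, Sca-1-positive, Kit-positive (LSK) compartment. Knockout mice (KO) had both copies of Nfat5 flanked by loxP sites (Nfat5 fl/fl) and carried Vav-Cre, a recombinase transgene driven by the Vav promoter, which is active throughout the blood system, and the controls (WT) carried Vav-Cre with unflanked Nfat5 (Nfat5 +/+), so that the Cre was shared by all mice. Each of 3 KO mice (2, 11 and 70) and 3 WT mice (3, 12 and 64) gave 1 HSC and 1 MPP array, which makes 4 groups of 3 arrays. The labels used here state no strain, age or sex.

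Type I interferons bind a receptor shared by nearly all cells, and a complex that includes the transducers STAT2 and IRF9 then enters the nucleus and binds the interferon-stimulated response element in the promoters of these genes. Their products sense foreign nucleic acids, degrade or modify viral RNA, block membrane fusion and tag proteins with ubiquitin-like ISG15. Blood stem cells keep part of this programme on without infection, and strong or lasting interferon drives them out of quiescence. NFAT5 is a transcription factor best known for the response to osmotic stress.

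The upstream sequences of the members on which the results turn are shown to let the element be seen beside the values. The sequences are those of RefSeq for the GRCm38.p6 assembly, whose promoter table held 31 of the 41 members and lacked Oas2, Dhx58, Parp9, Parp14, Usp18, Mx1, Mx2, Zbp1, Ifi27 and Rtp4. Each window runs from 250 bases before to 50 bases after the gene's start. The core of the element was searched as GAAA, any 2 bases and GAAA again, on both strands (TTTC, any 2 bases and TTTC when read on the other), and matches were allowed to overlap. It was found in the windows of 13 of the 31 members (41.9%) and of 1079 of all 27025 genes of the table (3.99%). A match describes letters and not binding. Isg15, which had the largest difference of all members in a test of genotype by population, carries 3 overlapping matches that begin 78 bases before its start. Parp12, which differed in the opposite sense in both populations, and Samd9l, the member that passed a test, have no match in their windows. The 250 bases before the start of these 3 genes read as follows, with matches in capitals.
Isg15 (chr4:156200819-156201068, minus strand): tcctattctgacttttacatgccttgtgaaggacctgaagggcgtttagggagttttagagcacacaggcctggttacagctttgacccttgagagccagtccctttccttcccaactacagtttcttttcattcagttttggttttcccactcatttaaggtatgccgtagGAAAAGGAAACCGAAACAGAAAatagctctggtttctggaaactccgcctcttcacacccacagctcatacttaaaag
Parp12 (chr6:39118350-39118599, minus strand): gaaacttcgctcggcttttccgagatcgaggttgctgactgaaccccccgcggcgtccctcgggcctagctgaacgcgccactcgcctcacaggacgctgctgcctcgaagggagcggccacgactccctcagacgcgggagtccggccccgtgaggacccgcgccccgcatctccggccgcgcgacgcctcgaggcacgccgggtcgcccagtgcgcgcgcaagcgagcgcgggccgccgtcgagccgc
Samd9l (chr6:3399572-3399821, minus strand): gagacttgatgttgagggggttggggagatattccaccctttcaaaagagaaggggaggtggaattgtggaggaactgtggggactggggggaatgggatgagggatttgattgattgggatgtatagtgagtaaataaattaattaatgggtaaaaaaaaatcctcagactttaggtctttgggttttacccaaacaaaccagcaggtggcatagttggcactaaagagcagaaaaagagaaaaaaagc

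Among the other members named below, Stat2, Ifit3, Ifih1 and Ifitm3 hold matches, shown with the bases around them, and Oasl2 and Dtx3l hold none. Ifit3 and Ifitm3 hold 2 each, of which 1 is shown. The matches of Ifih1 and Ifitm3 lie just after the gene's start, the others before it.
Stat2 (chr10:128270266-128270295, plus strand): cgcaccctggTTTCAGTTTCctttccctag
Ifit3 (chr19:34583363-34583392, plus strand): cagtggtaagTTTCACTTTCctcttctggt
Ifih1 (chr2:62646206-62646233, minus strand): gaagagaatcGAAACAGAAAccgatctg
Ifitm3 (chr7:141010706-141010735, minus strand): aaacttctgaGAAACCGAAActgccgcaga
The remaining matches were those of Oas1a, Oas3, Ifit1, Ddx58, Bst2, Rsad2, Eif2ak2 and Trim30a.

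Array medians over all probe sets lay between 5.81 and 5.91. Nfat5 was lower on each KO array than on each WT array of its population, at 7.69 ± 0.31 against 8.60 ± 0.36 in HSC and 7.16 ± 0.25 against 8.03 ± 0.24 in MPP (SD, n = 3). Even so, Nfat5 did not pass over all genes (adjusted p = 0.566 in HSC, 0.9999 in MPP and 0.897 for means of mice by limma). A member that did not pass between genotypes is thus not shown to be unchanged. One array, from the HSC of KO mouse 2, differed from the rest, with a spread about its group mean of 0.44 over all genes (0.28 to 0.38 on the other arrays), and calls that are lost without it are named beside their values. The sort genes went with the labels, with Slamf1 (CD150) high and Cd48 low in HSC. Averaged per array, 10 measured sort genes lay between 8.05 and 8.28 on KO HSC arrays and between 7.76 and 8.0 on WT HSC arrays. The HSC ranges did not overlap, and those of MPP did. This average mixes genes high in HSC with genes high in MPP. Cd34 averaged 9.71 in KO and 9.08 in WT HSC, and Flt3 5.97 and 5.13, both being higher in MPP. Procr, higher in HSC than in MPP, averaged 6.47 in KO and 5.71 in WT HSC. Each of these overlapped between genotypes in HSC. Ptprc overlapped in neither population, at 8.75 in KO and 7.83 in WT HSC and at 9.07 in KO and 8.28 in WT MPP. No values are given for the other sort genes. Averaged per array in the same way, each list of markers of mature cells that a sort can hold overlapped between KO and WT in both populations. The lists had 14 dendritic (the member Bst2 among them), 11 monocyte, 12 neutrophil, 9 B cell, 11 T and NK cell and 8 erythroid genes measured. Neutrophil markers varied most in HSC, from 5.73 to 7.67 in KO and from 5.91 to 7.84 in WT, and erythroid markers ran from 6.99 to 7.38 in KO and from 7.35 to 7.80 in WT. The part of these offsets in the results below was not tested. In sorted bulk RNA, fewer cells with a transcript and less transcript per cell cannot be told apart.

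The members were noisier between mice than most genes. Their median signal was also higher, at 7.21 against 6.48 over all genes tested, and the part of signal level in the noise was not tested. The SD within groups had a median of 0.45 over the 38 members, from 0.16 for Ifitm3, which blocks viral entry at membranes, to 1.02 for the ADP-ribosyltransferase family member Parp9, against a median of 0.29 over all 14620 genes tested. Averaged over the 38 members, HSC signal was 7.26, 7.49 and 7.35 in KO mice 2, 11 and 70 and 7.25, 7.26 and 7.15 in WT mice 3, 12 and 64. In MPP it was 7.37, 7.33 and 7.31 in the KO mice and 7.50, 7.38 and 7.41 in the WT mice. The HSC groups thus touched, with KO mouse 2 at the level of WT mouse 12, and the MPP groups did not overlap, with KO below WT by less than the range among WT arrays. The direction of both offsets is described, not tested, as the members were chosen as a list.

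**Figure D1:**
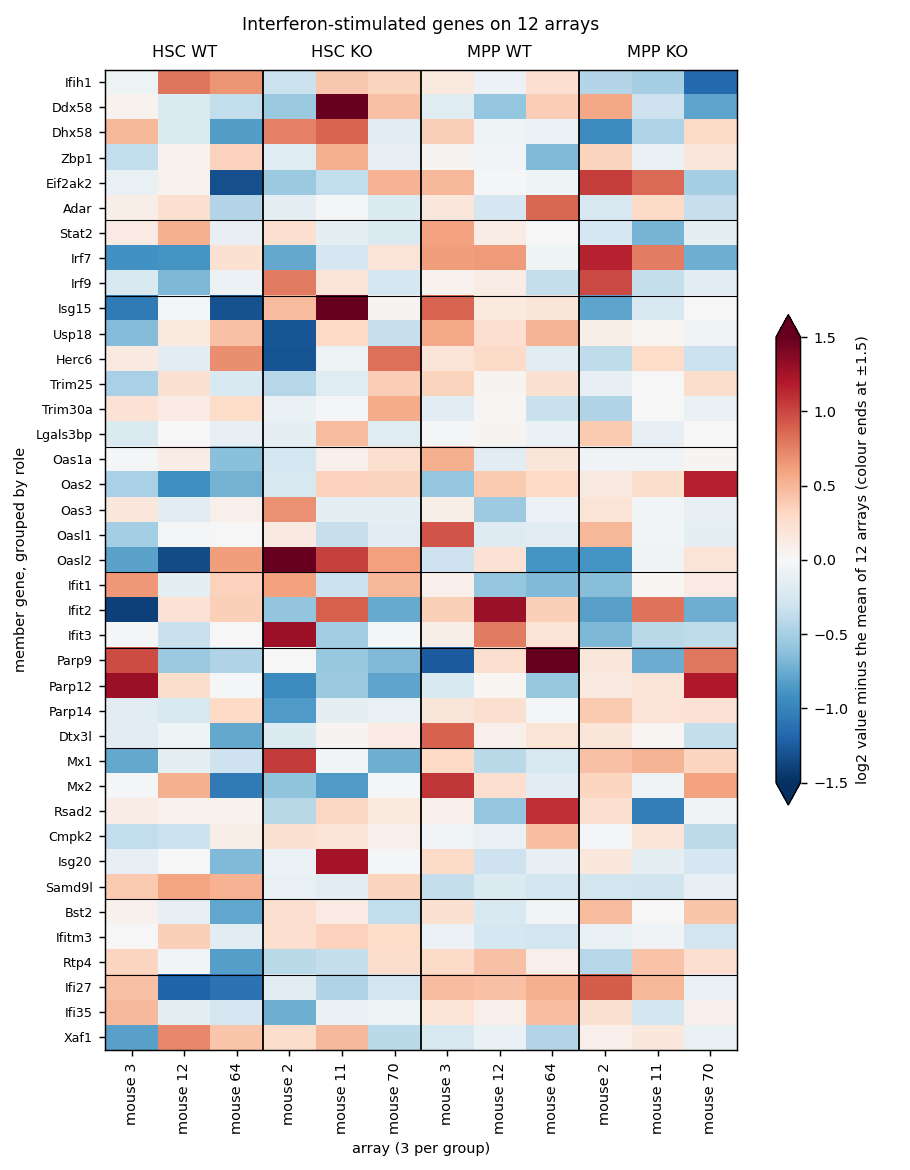
Log2 value of each of 39 members (rows, grouped by role) on each of 12 arrays (columns, 3 mice per group), minus the mean of that gene over all arrays; the colour scale ends at ±1.5. No block of rows is uniformly high or low in one group, and single cells such as Isg15, Ddx58 and Isg20 on the HSC array of KO mouse 11 stand out.

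Comparing KO with WT HSC asks what loss of NFAT5 does to this programme in unstressed stem cells. The differences went both ways. Isg15, Oasl2 and Oas2 stood on the positive side, the ADP-ribosyltransferase Parp12 and the antiviral growth regulator Samd9l on the negative side, and the sensors, Ifit genes and transcription factors overlapped between genotypes. By limma 0 of 38 members passed at an adjusted p under 0.05, as did 0 of all genes (0%). Unadjusted p was under 0.05 for 5 members (13.2%; all genes 6.29%), 3 of them higher in KO (all genes 3.47%) and 2 lower (all genes 2.81%). KO and WT arrays were fully separated for 4 members (10.5%; all genes 8.87%), 2 higher (all genes 5.15%) and 2 lower (all genes 3.72%). The median difference was 0.12 over members, with 24 of 38 above 0, and 0.02 over all genes, of which 53.4% lay above 0.

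Isg15, the ubiquitin-like modifier, read 7.24, 8.48 and 6.81 in HSC of KO mice 2, 11 and 70, and 5.70, 6.73 and 5.46 in those of WT mice 3, 12 and 64. The lowest KO value, that of mouse 70, was only just above the highest WT value. On the log2 scale it differed by 1.55 (SE 0.45, adjusted p = 0.638 by limma), and 1.06 to 1.93 when a mouse was left out. Usp18, which removes ISG15 from proteins and dampens receptor signalling, was at -0.42 (SE 0.37), and Herc6, the mouse ligase that attaches ISG15, at -0.41 (SE 0.45), both with intervals that include 0. Trim25 and Trim30a, ubiquitin ligases that regulate sensor signalling, and the secreted Lgals3bp lay between -0.06 and 0.17.

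Oasl2, a synthetase-like protein, read 9.14, 8.58 and 8.17 in KO and 6.75, 6.21 and 8.18 in WT HSC. WT mouse 64 reached the lowest KO value, so the groups overlapped. The difference was 1.59 (SE 0.50, adjusted p = 0.643 by limma), and it stood at 1.33 without the HSC array of KO mouse 2. Oas2, an enzyme that makes the second messenger of RNase L, read 6.25, 6.84 and 6.82 in KO and 6.01, 5.57 and 5.78 in WT, all KO values above all WT values, a difference of 0.85 (SE 0.33, adjusted p = 0.763 by limma). Its relatives Oas1a at 0.20 (SE 0.23) and Oas3 at 0.11 (SE 0.25) lay within about 1 SE of 0, and Oas1c, a synthetase gene outside the members, stood at -0.83 (SE 0.25, adjusted p = 0.638 by limma). The mouse Oas genes lie in a cluster of close copies, and cross-hybridisation between them was not tested.

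Parp12, a mono-ADP-ribosyltransferase that restrains viral RNA translation, read 6.78, 7.19 and 6.95 in KO and 9.04, 8.01 and 7.72 in WT HSC. Every KO value was below every WT value. The difference was -1.28 (SE 0.36, adjusted p = 0.638 by limma), and -0.89 without WT mouse 3, which had the highest value. Parp14 was at -0.32 (SE 0.22) and Parp9 at -0.40 (SE 0.73), while Dtx3l, the ubiquitin ligase that pairs with PARP9, was at 0.32 (SE 0.26). Samd9l, which limits translation and the growth of blood progenitors, read 9.87, 9.82 and 10.32 in KO and 10.37, 10.57 and 10.50 in WT HSC. The groups did not overlap, KO mouse 70 lying close to WT mouse 3, and the difference was -0.48 (SE 0.16, adjusted p = 0.678 by limma).

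The remaining members had wide intervals in HSC. Among the sensors, Ddx58 (RIG-I) and its regulator Dhx58 were at 0.66 (SE 0.50) and 0.67 (SE 0.40), Ifih1 (MDA5) at -0.32 (SE 0.29), the double-stranded RNA kinase Eif2ak2 at 0.33 (SE 0.47), the RNA editor Adar at -0.09 (SE 0.29) and the Z-nucleic acid sensor Zbp1 at 0.06 (SE 0.27). Ddx58 reached 9.91 on the array of KO mouse 11 and was 7.78 to 8.77 on all other HSC arrays. Of the transducers, Irf9 was at 0.57 (SE 0.36), Irf7 at 0.24 (SE 0.49) and Stat2 at -0.22 (SE 0.24). The Ifit genes, whose products bind viral RNA ends, lay between -0.02 and 0.37, and the exonuclease Isg20 at 0.64 (SE 0.34) owed its highest value, 8.53, again to KO mouse 11. On that array 15 of the 38 members had the highest value of the KO HSC group, against 11 on that of mouse 2 and 12 on that of mouse 70. The lowest value fell on the array of mouse 2 for 19 members, of mouse 11 for 6 and of mouse 70 for 13. The same counts over all genes were not made, so they are not read as a trait of the members.

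**Figure D2:**
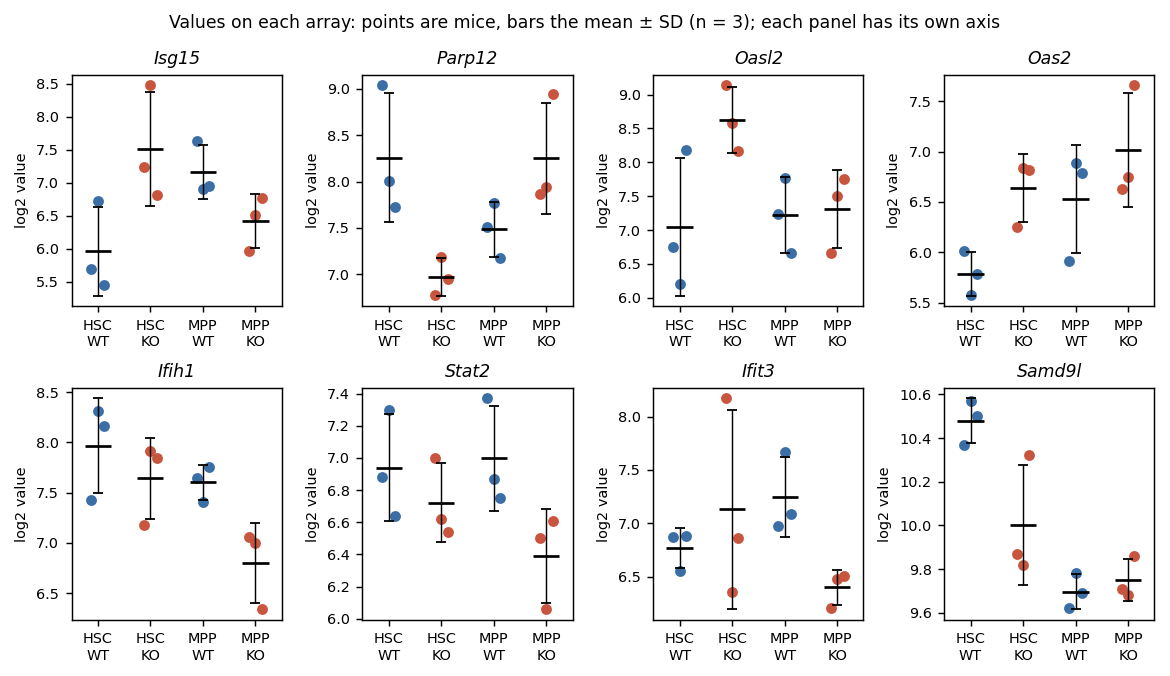
Log2 values of 8 members in the 4 groups; points are mice (blue WT, red KO), the long bar is the mean and the whiskers are ±SD (n = 3), and each panel has its own axis. Isg15 is high in KO HSC and WT MPP, Parp12 in WT HSC and KO MPP, and Samd9l is highest in WT HSC.

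The same comparison in MPP covers cells just outside the stem cell gate. Here the Ifit genes Ifit2 and Ifit3, the sensor Ifih1, Isg15 and the transducer Stat2 had the largest negative differences, and Parp12 and Mx1 the largest positive ones. Again 0 of 38 members passed by limma, as did 0 of all genes (0%). Unadjusted p was under 0.05 for 2 members, both lower in KO (5.26%; all genes 3.19%, with 1.40% higher and 1.79% lower). The groups did not overlap for 8 members (21.1%, all genes 9.49%), 3 higher (all genes 4.82%) and 5 lower (all genes 4.66%). Among the higher ones Mx1 and Xaf1 separated only narrowly, as given below. The median difference was -0.04 over members, with 15 of 38 above 0, and 0.00 over all genes, of which 50.5% lay above 0, and the former stood at -0.14 without KO mouse 2 and -0.12 without WT mouse 12.

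Ifih1 read 7.06, 7.0 and 6.34 in KO and 7.65, 7.41 and 7.75 in WT MPP, all KO values below all WT values. The difference was -0.80 (SE 0.29, adjusted p = 0.9999 by limma). Stat2 read 6.50, 6.06 and 6.61 in KO and 7.37, 6.87 and 6.75 in WT MPP, also without overlap, a difference of -0.61 (SE 0.24). Ifit3 read 6.21, 6.48 and 6.51 in KO and 6.97, 7.67 and 7.09 in WT MPP, a difference of -0.84 (SE 0.38). Ifit2 at -0.92 (SE 0.61) overlapped, as KO mouse 11 reached 7.42 within the WT range of 6.97 to 7.90. Each of these 4 genes had a wide interval, that of Ifih1 running from -1.44 to -0.17.

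Isg15 and Parp12 stood the other way round than in HSC. Isg15 read 5.97, 6.52 and 6.77 in KO and 7.64, 6.91 and 6.95 in WT MPP, every KO value below every WT value, a difference of -0.75 (SE 0.45). Parp12 read 7.87, 7.94 and 8.94 in KO and 7.51, 7.77 and 7.17 in WT MPP, every KO value above every WT value, a difference of 0.77 (SE 0.36), or 0.42 without KO mouse 70. Usp18 was lower in KO without overlap by a smaller amount, at -0.41 (SE 0.37). Mx1, a dynamin-like GTPase that is defective in most inbred mouse strains, was higher without overlap at 0.54 (SE 0.38), on signals of 4.62 to 5.53 close to the filter value of 4.96. Xaf1, an apoptosis cofactor, was higher without overlap at 0.31 (SE 0.35). The separations of Mx1 and Xaf1 were narrow. The lowest KO and highest WT values were 5.35 and 5.33 for Mx1 and 8.572 and 8.568 for Xaf1. Dtx3l stood at -0.44 (SE 0.26), or -0.19 without WT mouse 3 and -0.29 without KO mouse 70. Oasl2, which led in HSC, was at 0.09 (SE 0.50) in MPP, and Samd9l at 0.05 (SE 0.16).

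**Figure D3:**
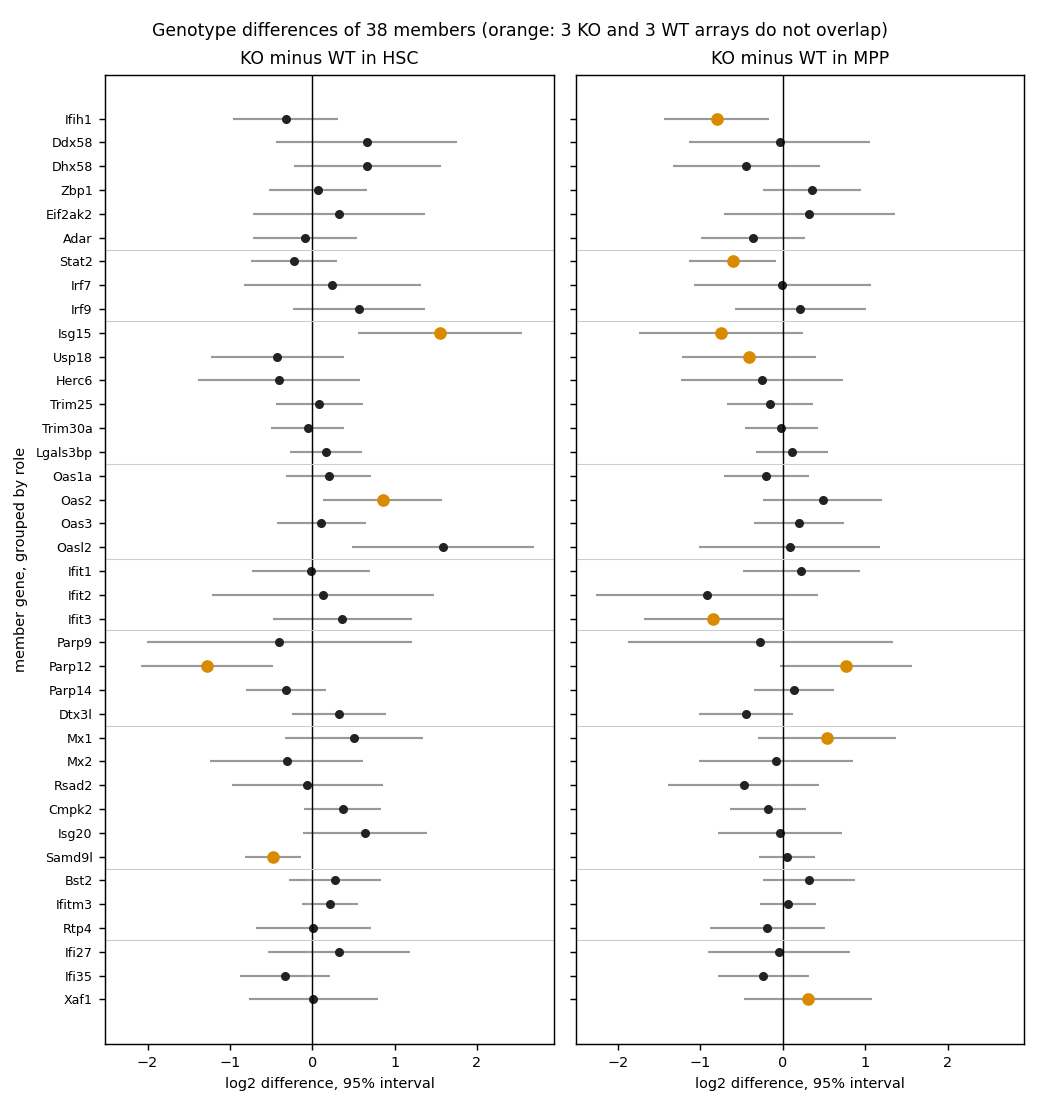
KO minus WT difference of 38 members in HSC (left) and MPP (right), on the log2 scale with 95% intervals; orange points mark members whose 3 KO and 3 WT values did not overlap. Isg15 and Parp12 are orange on opposite sides of 0 in both panels, and most other intervals include 0.

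An interaction term compared the genotype effect in stem cells with that in MPP, counted as KO minus WT in HSC less KO minus WT in MPP. By limma 0 of 38 members passed, as did 0 of all genes (0%). Unadjusted p was under 0.05 for 4 members (10.5%; all genes 4.50%), 2 positive (all genes 2.65%) and 2 negative (all genes 1.85%). Isg15 stood at 2.29 (SE 0.64, adjusted p = 0.884 by limma), with 1.86 to 2.82 when a mouse was left out, and Parp12 at -2.05 (SE 0.51, adjusted p = 0.884 by limma), with -2.32 to -1.67. They were the 2 of 38 members (5.26%) whose genotypes separated without overlap in both populations and in opposite directions, which held for 0.417% of all genes. Both were known from earlier results of these data when the members were listed. Ifit3 stood at 1.21 (SE 0.54), or 0.59 without KO mouse 2, Oasl2 at 1.5 (SE 0.71), or 0.81 without WT mouse 12, 0.92 without KO mouse 2 and 2.35 without WT mouse 64, and Samd9l at -0.53 (SE 0.22). The median was 0.22 over members, with 23 of 38 above 0, and 0.01 over all genes, of which 51.8% lay above 0.

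With both arrays of a mouse averaged first, so that 3 KO mice were set against 3 WT mice, 0 of 38 members and 0 of all genes (0%) passed by limma. The largest positive member differences were those of Oasl2 at 0.84 (SE 0.15, adjusted p = 0.989 by limma) and Oas2 at 0.67 (SE 0.22), while Oas3 stood at 0.15 (SE 0.21) and Oas1a at 0.00 (SE 0.16). Oas1c stood at -0.69 (SE 0.18). Ifih1 at -0.56 (SE 0.17) was the largest negative one among members. The groups of mice did not overlap for 5 members (13.2%; all genes 8.69%), Oasl2, Oas2, Mx1 and Zbp1 higher and Ifih1 lower in KO. The median over members was 0.05, and -0.03 without WT mouse 64.

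Comparing HSC with MPP in WT mice asks how the programme differs between stem cells and their progeny when NFAT5 is present. Samd9l was the member that passed, higher in HSC. It read 10.37, 10.57 and 10.50 in HSC and 9.62, 9.78 and 9.69 in MPP of mice 3, 12 and 64, a gap far wider than the range within either group. The difference was 0.78 (SE 0.16, adjusted p = 0.0312 by limma). The call was lost with the mouse as a block (adjusted p = 0.065 by limma), with only the arrays compared (adjusted p = 0.0557 by limma) and without any 1 of mice 2, 3, 11, 12 and 64 (adjusted p = 0.0507 to 0.228 by limma), while the difference stayed between 0.76 and 0.87. With 1 of 38 members called, the background is 2.07% of all genes, 0.746% higher and 1.32% lower in HSC. Unadjusted p was under 0.05 for 5 members (13.2%; all genes 14.1%), 1 higher in HSC (all genes 6.36%) and 4 lower (all genes 7.75%). HSC and MPP values did not overlap for 6 members (15.8%; all genes 21.3%), 2 higher (all genes 11%) and 4 lower (all genes 10.3%), shares near or below those of all genes.

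The members leaned towards MPP in WT mice. The median difference was -0.25, with 10 of 38 above 0, where the median over all genes was 0.03 and 54.2% lay above 0, and it was -0.17 after a second quantile normalization and -0.15 without WT mouse 64. Isg15 had the largest negative difference, at -1.20 (SE 0.45, adjusted p = 0.253 by limma), and its WT values given above did not overlap between populations. Ifi27, a mitochondrial protein strongly induced by interferon, read 8.24, 6.60 and 6.69 in HSC and 8.26, 8.24 and 8.33 in MPP, where WT mouse 3 was unlike the other WT mice, a difference of -1.10 (SE 0.39). Dtx3l stood at -0.72 (SE 0.26), Ifit2 at -0.95 (SE 0.61) and Ifit3 at -0.48 (SE 0.38), each without overlap. For Ifit2 the highest HSC value, 6.96, all but met the lowest MPP value, 6.97. Oas2 stood at -0.74 (SE 0.33) with overlap, or -0.45 without WT mouse 12 and -1.16 without WT mouse 3. On the other side were Trim30a at 0.37 (SE 0.20), without overlap, Ifit1 at 0.67 (SE 0.32) and Parp12 at 0.77 (SE 0.36).

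In KO mice the lean was not seen. The median was 0.04 over members, with 20 of 38 above 0, and 0.05 over all genes, of which 57.1% lay above 0, and the former was -0.01 without KO mouse 11. By limma 0 of 38 members passed (all genes 1.26%, 0.520% higher and 0.739% lower in HSC). Unadjusted p was under 0.05 for 6 members (15.8%; all genes 12.4%), 4 higher (all genes 6.04%) and 2 lower (all genes 6.31%), and 7 did not overlap (18.4%; all genes 17.1%), 4 higher (all genes 9.77%) and 3 lower (all genes 7.33%). Isg15 was now higher in HSC, at 1.09 (SE 0.45, adjusted p = 0.358 by limma), and Parp12 lower, at -1.27 (SE 0.36, adjusted p = 0.145 by limma), both without overlap. Isg15 was higher in HSC by 1.27 and 1.96 in KO mice 2 and 11, but by only 0.04 in KO mouse 70. Ifih1 at 0.84 (SE 0.29), Oasl2 at 1.32 (SE 0.50) and Ifitm3 at 0.44 (SE 0.15) were higher without overlap, and Parp14 at -0.63 (SE 0.22) and Ifi27 at -0.73 (SE 0.39) lower. Without KO mouse 2 Oasl2 stood at 0.74 and Parp14 at -0.33, and without KO mouse 70 Ifih1 stood at 0.52. Samd9l stood at 0.25 (SE 0.16). The WT and KO comparisons use different mice. Gene by gene, the test of their difference is the interaction above, which no member passed. The difference between the member medians was not tested.

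Over all 6 mice, the same arrays as in both comparisons above, Samd9l again passed at 0.52 (SE 0.11, adjusted p = 0.0213 by limma; background 4.85% of all genes). It was higher in HSC in 6 of 6 mice, by 0.16, 0.14 and 0.46 in KO mice 2, 11 and 70 and by 0.75, 0.79 and 0.81 in WT mice 3, 12 and 64. With the mouse as a block the call held (adjusted p = 0.0449 by limma), and it was lost without any 1 of mice 2, 3, 11, 12 and 64 (adjusted p up to 0.106 by limma). Ifitm3 was also higher in HSC in 6 of 6 mice, by 0.11 to 0.62, at 0.36 (SE 0.11, adjusted p = 0.0985 by limma), and Ifi27 lower in 6 of 6, by 0.02 to 1.64, at -0.91 (SE 0.28, adjusted p = 0.0956 by limma). Neither passed, though Ifitm3 did after a second quantile normalization and with trended and robust variances together, and Ifi27 did without mouse 3.

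**Figure D4:**
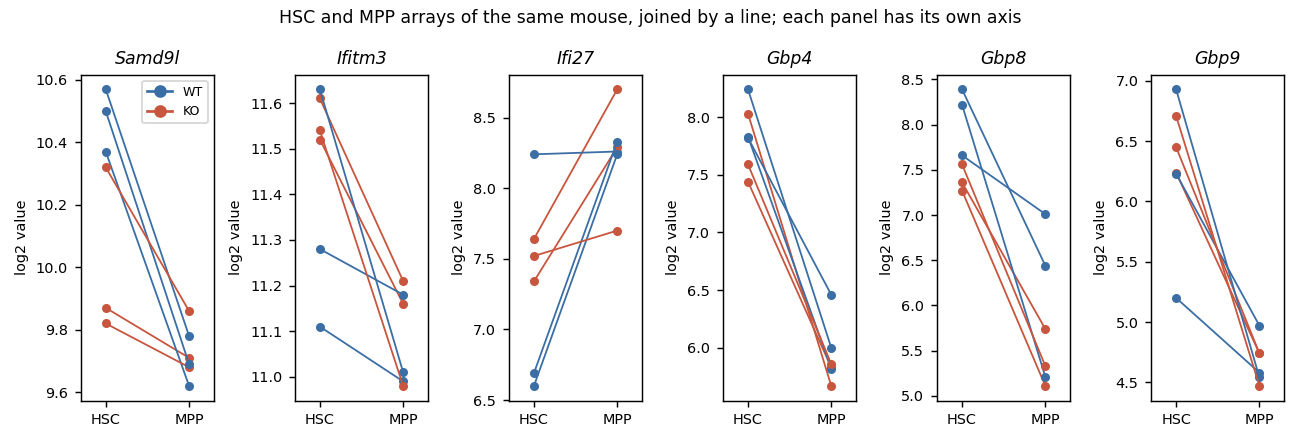
Log2 values on the HSC and MPP arrays of each of 6 mice, joined by a line (blue WT, red KO), for 3 members and 3 guanylate-binding proteins; each panel has its own axis. Samd9l and Ifitm3 fall and Ifi27 rises from HSC to MPP in every mouse, and Gbp4, Gbp8 and Gbp9 fall in every mouse.

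Other genes of the interferon system were read from lists beside the members. The guanylate-binding proteins, GTPases that interferon gamma induces strongly and that attack vacuoles of intracellular microbes, included genes higher in HSC in both genotypes. Gbp4 read 8.24, 7.82 and 7.83 in HSC and 6.0, 6.46 and 5.82 in MPP of WT mice, a difference of 1.87 (SE 0.21, adjusted p = 0.00146 by limma), and 1.90 in KO mice (SE 0.21, adjusted p = 0.00177 by limma). These calls held under every alternative run, the mouse as a block and each mouse left out among them. Gbp8 passed at 1.87 (SE 0.39, adjusted p = 0.0372 by limma) in WT and 2.0 (SE 0.39, adjusted p = 0.0335 by limma) in KO mice, with both calls lost under the block (adjusted p = 0.105 and 0.104 by limma), and Gbp9 at 1.82 in KO mice (SE 0.35, adjusted p = 0.0335 by limma), lost under the block (adjusted p = 0.0831 by limma). Leaving out 1 mouse also ended these calls, that of Gbp8 without any 1 of mice 2, 11, 12, 64 and 70 in WT and of 2, 11, 64 and 70 in KO, and that of Gbp9 without 2, 3, 11 or 70. The KO calls of Gbp8 (adjusted p = 0.0816 by limma) and Gbp9 (adjusted p = 0.0700 by limma) were lost when the HSC array of KO mouse 2 alone was left out, and the Gbp8 calls were also lost with array weights in KO (adjusted p = 0.0595 by limma) and with only the arrays compared in WT (adjusted p = 0.116 by limma). The KO MPP values of Gbp9, 4.47 to 4.74, lie under the filter value, so its difference can be larger. In the list of 28 GTPase and antigen processing genes, 23 of them tested, 2 passed upward (all genes 0.746%) and 0 downward in WT mice and 3 upward (all genes 0.520%) and 0 downward in KO mice. Of them 0 passed between genotypes by limma, with 1 at an unadjusted p below 0.05 in HSC (4.35%; all genes 6.29%) and 0 in MPP (all genes 3.19%). The 1 gene was Gm12250, an interferon-inducible GTPase gene, at 0.55 (SE 0.25) in KO HSC. Gbp8 stood at -0.70 (SE 0.39) in HSC and -0.83 (SE 0.39) in MPP, the latter at -0.43 without WT mouse 3 and -1.33 without WT mouse 12. Gbp2 stood at -0.44 (SE 0.24) in MPP, or -0.27 without KO mouse 2.

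Receptors and proximal transducers were lower in HSC where they passed. Of 27 tested genes 3 passed downward (all genes 1.32%) and 0 upward in WT, and 2 downward (all genes 0.739%) and 0 upward in KO mice. Tlr7, the sensor of single-stranded RNA in endosomes, stood at -4.43 (SE 0.32, adjusted p = 0.000103 by limma) in WT and -3.58 (SE 0.32, adjusted p = 0.000597 by limma) in KO mice, on HSC signals of 4.21 to 4.54, which lie under the filter value, so that the differences can be larger. Il10rb, a chain of the interleukin 10 and interferon lambda receptors, stood at -1.78 (SE 0.32, adjusted p = 0.02 by limma) in WT and -2.54 (SE 0.32, adjusted p = 0.00374 by limma) in KO mice, and its WT call was lost without mouse 3 or 12 (adjusted p = 0.128 and 0.113 by limma) and with only the arrays compared (adjusted p = 0.0542 by limma). Ifngr2, the signalling chain of the interferon gamma receptor, stood at -1.28 (SE 0.19, adjusted p = 0.00707 by limma) in WT mice, lost under the block (adjusted p = 0.0508 by limma) and without mouse 12 or 64 (adjusted p = 0.0691 and 0.0914 by limma). None of the 27 passed between genotypes by limma, and unadjusted p was below 0.05 for 4 in HSC (14.8%; all genes 6.29%) and 3 in MPP (11.1%; all genes 3.19%). Ikbke, a kinase upstream of IRF3, stood at 1.79 (SE 0.41, adjusted p = 0.471 by limma) and Pias1, a SUMO ligase, at -0.56 (SE 0.17) in KO HSC, and Tlr7 at -0.98 (SE 0.32) and Ifngr2 at -0.57 (SE 0.19) in KO MPP.

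The interferons themselves were weak. Of 18 measured genes 11 were above the filter, and 0 passed in any of the 4 comparisons by limma. Unadjusted p was below 0.05 for 1 of the 11 in WT HSC against MPP, Ifna6 at 0.35 (SE 0.16), and for 0 in the others. That share is below the 14.1% of all genes in WT HSC against MPP. Between genotypes Ifna14 stood at 0.23 (SE 0.16) and Ifnab at -0.17 (SE 0.16) in HSC, and Ifna6 at 0.27 (SE 0.16) and Ifnb1 at 0.16 (SE 0.16) in MPP. Of 49 tested further interferon-stimulated genes outside the members, 0 passed between genotypes by limma, and unadjusted p was below 0.05 for 6 in HSC (12.2%; all genes 6.29%) and 2 in MPP (4.08%; all genes 3.19%). Oas1c stood at -0.83 (SE 0.25) and Phf11a at 0.60 (SE 0.19) in KO HSC, and Slfn5, a Schlafen protein, at 1.0 (SE 0.41) and Oas1c at -0.55 (SE 0.25) in KO MPP. The median of these 49 genes was 0.07 in HSC and -0.04 in MPP. Between populations Gm4951, an interferon-inducible GTPase gene, passed upward in HSC of WT mice at 1.31 (SE 0.28, adjusted p = 0.0444 by limma), and Ly6c2, which encodes a surface antigen of monocytes, passed downward in HSC of KO mice at -3.08 (SE 0.61, adjusted p = 0.0378 by limma). Gm4951 was lost under the block (adjusted p = 0.133 by limma) and without any 1 of mice 3, 11, 12, 64 and 70 (adjusted p = 0.0603 to 0.301 by limma), and Ly6c2 without any 1 of mice 2, 3, 11 and 70 (adjusted p = 0.0817 to 0.259 by limma). Without the HSC array of KO mouse 2 alone both were lost (adjusted p = 0.0521 for Gm4951 and 0.116 for Ly6c2 by limma). Gm4951 was also lost with trended and robust variances (adjusted p = 0.0563 by limma), and Ly6c2 with array weights (adjusted p = 0.0702 by limma) and with only the arrays compared (adjusted p = 0.0562 by limma). Ly6a, the gene of the sort marker Sca-1, had no named probe set and was not analysed here.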

How the data were processed

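RNA of 12 sorted samples (HSC and MPP of 6 mice) was amplified from 300 pg each and biotin-labelled with NuGEN kits, per the labels' protocols. The authors deposited RMA-normalized log2 signals, 1 per probe set and array. RMA and limma come from the submitters' processing notes, without versions. RMA sets all arrays to 1 distribution, so a shift of the whole transcriptome would be removed, and it compresses differences of weak genes. Precision is limited by how few arrays each group has.

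Of 22142 probe sets 19527 had 1 gene symbol and 2615 none. The highest-mean probe set was kept per gene. Genes whose mean value fell in the bottom 25% (4874, below 4.96) were left out, and 14620 were tested. Group means of 12 arrays were fitted with limma 3.58.1 (R 4.3.3, statmod 1.5.0), two-sided, with Benjamini-Hochberg adjustment over all genes tested and a threshold of 0.05. Intervals are 95%. The script was tested on simulated data. The labels number the mice, which ties each HSC array to the MPP array of the same animal. Deviations from group means correlated with r of 0.032 to 0.091 across genes between the arrays of a mouse. The mouse entered as a block in an alternative, fixed within mice and random between genotypes (consensus correlation 0.0723).

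The members and lists were chosen with earlier results of these data known. Named are members that passed or had the lowest p in a comparison (5, or 3 for the means of mice) and members whose genotypes separated oppositely. Also named are passing genes and the 2 lowest p of the interferon lists, Nfat5 and Ly6a. Marker lists are given as array means, with some single markers beside them.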

Additional observations from a re-analysis of the deposited data

Results flagged for a closer look

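Isg15 and Parp12 were singled out because all KO arrays lay on one side of all WT arrays in HSC and on the other side in MPP. The KO to WT difference in HSC minus that in MPP was 2.29 for Isg15 (higher in KO HSC, lower in KO MPP) and -2.05 for Parp12 (lower in KO HSC, higher in KO MPP). The test of this difference as an interaction gave an unadjusted p of 0.00436 for Isg15 and 0.00225 for Parp12 by limma. The adjusted p was 0.884 by limma for each, so neither passed over all genes. The unadjusted values come from the same arrays whose separation singled out both genes, so they are no separate support. Both genes were also known from earlier results of these data when the members were listed.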

How the results depend on the processing

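No member passed between genotypes or in the interaction under any alternative, and no named difference changed sign. In WT mice, 180 genes passed between HSC and MPP with the mouse as a block against 302 without it, and 0 members passed with the block or with only the arrays compared, against 1; the member median was -0.17 after a second quantile normalization. In KO mice the genes passing were 79 with only the arrays compared, 113 with the block and 106 without the HSC array of KO mouse 2, against 184. Over all 6 mice 2 members passed after a second quantile normalization and 2 with trended and robust variances, against 1. The block changed the calls named in the text beside their values and no other call of a named gene. Leaving out a mouse gave 0 to 1 genes in KO against WT HSC (1 without mouse 11) and a member median of 0.07 to 0.16 there, -0.14 to -0.02 in MPP and 0.10 to 0.32 in the interaction, and -0.03 to 0.06 for mouse means. Between HSC and MPP it gave 70 to 297 genes, 0 to 1 members and a median of -0.30 to -0.15 in WT mice, 57 to 168 genes and a median of -0.01 to 0.07 in KO mice, and 379 to 524 genes, 0 to 1 members and a median of -0.20 to -0.07 over all mice. With 3 mice a group and within-group SDs near 0.45, small shifts of single members were not detectable.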
